A study of Rattus norvegicus with 6 samples.

Results

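The genes of synaptic vesicles and of regulated exocytosis were examined in rat brain RNA sequencing. They were selected by gene symbol (the Syt, Syn, Syp, Stx, Stxbp, Vamp, Snap, Sv2, Cplx, Rims, Unc13, Rab3, Nsf, Bsn and Pclo genes), which gave 73 of the 32623 genes in the deposited table. A group of 3 libraries came from brain given pcDNA3.1, a mammalian expression plasmid with no insert (vector), and the other group of 3 from brain with pcDNA3.1/LINC00894, the same plasmid carrying a human long non-coding RNA (LINC00894). Both groups thus share the plasmid backbone. The title of the series names ischemia and reperfusion of the brain; its sample labels give no surgery, time, strain, age, sex or brain region, and they do not say how the plasmid was delivered or which cells took it up. Separate animals are not stated either, and p-values therefore reflect only how these libraries spread, which may in part be technical. Replicates were numbered in accession order.

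Neurotransmitter is packed into small vesicles, which dock at the active zone of the nerve terminal and fuse with the plasma membrane when calcium enters. Fusion is driven by SNARE proteins: a vesicle SNARE (synaptobrevin, Vamp genes) zips together with syntaxin and SNAP-25 on the plasma membrane, primed by Munc13 (Unc13 genes), held ready by complexin and triggered by the calcium sensor synaptotagmin. Relatives of the same proteins serve fusion between internal membranes in every cell type, so the families hold neuronal and general members side by side.

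The summed gene counts ran from 12843875 to 16268464 per library. The members took 1.64%, 1.56% and 1.57% of all counts in vector replicates 1, 2 and 3 and 1.26%, 1.63% and 1.49% in LINC00894 replicates 1, 2 and 3. LINC00894 replicate 1 thus lay below the other 5 libraries, while LINC00894 replicate 2 lay within the vector range. The Y-linked Kdm5d was at 0 counts in LINC00894 replicates 1 and 2 and at 491 to 930 elsewhere. Eif2s3y, also Y-linked, was at 0 in the same libraries and at 997 to 1394 elsewhere. Libraries without counts of these genes occurred only under LINC00894. This difference is thus partly confounded with the plasmid, and its part in the members' values was not tested. The label brain was met by neuronal markers in all libraries: the summed level of 11 neuronal genes (such as Tubb3, Uchl1 and Thy1) was 1667 to 1872 FPKM under vector, against 1402 to 1915 FPKM under LINC00894 (FPKM, fragments scaled to exonic length and to the library's summed counts). Of 5 choroid plexus markers, Otx2 was at 0, Ttr, Kl and Folr1 were at most 1.29 FPKM, and Aqp1 ranged from 0.43 to 8.12 FPKM.

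The members spanned nearly the whole range of brain transcript levels. Of the 73 members, 16 had a mean over all libraries of at least 100 FPKM, 36 lay from 10 up to 100 FPKM, 18 from 1 up to 10 FPKM and 3 under 1 FPKM. Snap25, the plasma membrane SNARE of nerve terminals, held the highest level, 828.3 FPKM, which was 15.8% of the summed level of all members. Syp (synaptophysin, an abundant vesicle membrane protein), Vamp2 (synaptobrevin 2, the main vesicle SNARE of the forebrain) and Syt1 (the calcium sensor of fast release) followed at 477.6, 358.4 and 341.3 FPKM. Syp lay above Vamp2 in all 6 libraries, while Vamp2 and Syt1 changed places between libraries and could not be ordered. The lowest members were Cplx4, Syt15 and Syt8, with 0 to 2, 1 to 10 and 0 to 6 counts per library. They failed the filter on low counts and were not tested, which left 70 members.

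**Figure D1:**
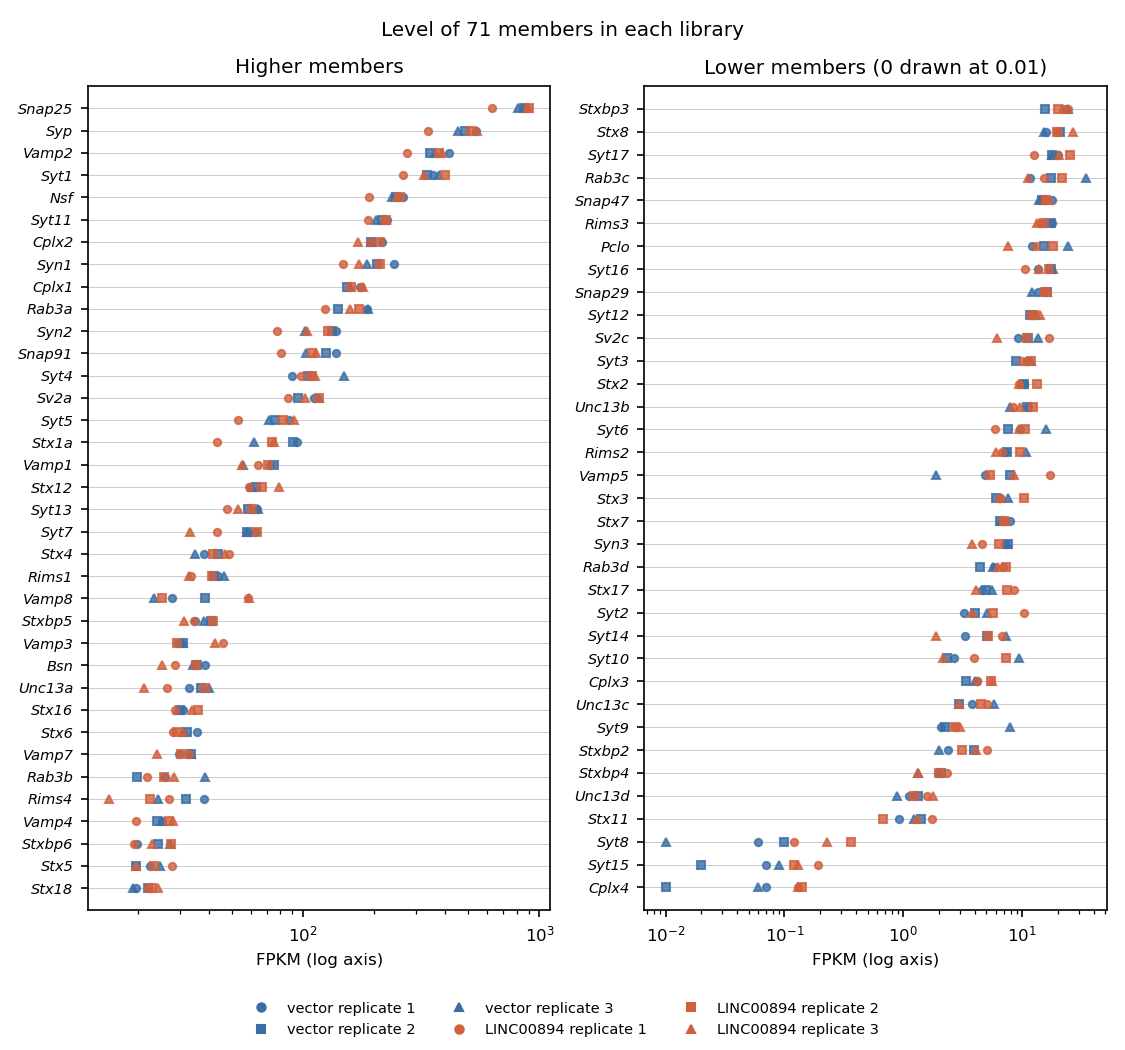
Level of 71 members in every library, in FPKM on a log axis, ordered by the mean over all libraries; blue marks are vector, orange marks are LINC00894, and the marker shape gives the replicate; values of 0 are drawn at 0.01. Snap25 stands highest at 828.3 FPKM on average and Cplx4, Syt15 and Syt8 lie under 1 FPKM; the circle of LINC00894 replicate 1 lies leftmost for the first 6 genes from the top.

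The promoters of 58 members were listed by RefSeq (build GRCr8, from 250 bases before to 50 bases after the start site, 300 bases in all). They were searched on both strands for the motif of the EGR zinc finger factors, GCGGGGGCG, which nerve cells induce with activity and which are described elsewhere as regulators of synapsin promoters, for the cyclic AMP response element TGACGTCA, for the GC box GGGCGG and for TATAAA. The EGR motif, whose last letters can overlap a GC box, was found in 10 of 58 member windows (17.2%) and in 3.46% of 19005 protein-coding genes; its members were Cplx1, Nsf, Rab3d, Stxbp5, Syn1, Syn2, Syp, Syt1, Vamp2 and Vamp4. TGACGTCA was found in Syn1 and Vamp1 (3.45% against 2.22% of all), the GC box in 42 members (72.4% against 43.1%) and TATAAA in 2 (3.45% against 13.1%). The windows of members were also richer in G and C, with a median of 63.2% against 55.3% over all genes. A match is a stretch of letters and not a shown binding site. The windows of 4 members are given as examples of genes described below. Syn1 (chrX:3725495-3725794, plus strand) and Vamp2 (chr10:54292539-54292838, plus strand) are abundant neuronal genes. Rims1 (chr9:32692723-32693022, minus strand) had one of the smallest p-values among members. Vamp8 (chr4:106005593-106005892, minus strand) is a general SNARE whose estimate lay on the other side of 0. The groups overlapped for Syn1, Vamp2 and Vamp8. Each is written 5′ to 3′ along the gene, with matches to the EGR motif or to TGACGTCA in capitals.
Syn1: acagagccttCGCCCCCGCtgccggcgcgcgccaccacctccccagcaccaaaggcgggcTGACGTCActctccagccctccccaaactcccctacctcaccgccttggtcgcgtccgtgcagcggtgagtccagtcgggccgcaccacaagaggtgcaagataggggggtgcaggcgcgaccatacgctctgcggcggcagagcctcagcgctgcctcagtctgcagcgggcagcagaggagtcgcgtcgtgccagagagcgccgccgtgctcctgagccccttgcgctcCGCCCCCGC
Vamp2: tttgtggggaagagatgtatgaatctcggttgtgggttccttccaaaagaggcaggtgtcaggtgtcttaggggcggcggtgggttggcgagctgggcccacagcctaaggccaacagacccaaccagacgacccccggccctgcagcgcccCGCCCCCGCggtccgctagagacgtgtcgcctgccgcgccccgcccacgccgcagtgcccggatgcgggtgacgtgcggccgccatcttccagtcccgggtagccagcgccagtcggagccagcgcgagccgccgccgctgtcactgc
Rims1: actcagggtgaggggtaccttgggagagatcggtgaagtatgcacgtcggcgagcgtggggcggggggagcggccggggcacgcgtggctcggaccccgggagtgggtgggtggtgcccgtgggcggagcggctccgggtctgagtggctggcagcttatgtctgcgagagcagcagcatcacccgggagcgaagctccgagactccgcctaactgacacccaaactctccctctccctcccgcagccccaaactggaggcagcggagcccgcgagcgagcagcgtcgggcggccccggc
Vamp8: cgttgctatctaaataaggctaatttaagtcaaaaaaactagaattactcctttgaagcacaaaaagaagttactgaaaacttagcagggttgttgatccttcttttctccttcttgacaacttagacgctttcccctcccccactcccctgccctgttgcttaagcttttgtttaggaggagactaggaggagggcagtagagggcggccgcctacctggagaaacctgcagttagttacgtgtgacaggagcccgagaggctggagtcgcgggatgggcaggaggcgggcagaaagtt
The Syn1 window holds 2 EGR matches and 1 TGACGTCA, the Vamp2 window 1 EGR match, and the windows of Rims1 and Vamp8 none of either. The Vamp8 window differs in composition, with 49.0% G and C and 9 CpG dinucleotides, against 71.0% and 31 in Syn1. Of the 10 members with an EGR match 8 had a negative log2 fold change in LINC00894 (median -0.16), and of the 45 tested members with a window but no match 28 did (median -0.05). Most of the matching members (Cplx1, Nsf, Syn1, Syn2, Syp, Syt1 and Vamp2) belong to the release core defined below. In that subset 28 of 31 tested members were lower, so the motif and the subset were not separated. A split was also seen for the GC box, so it was not particular to the EGR motif. Of 41 tested members with a GC box 30 were lower (median -0.13), and of 14 without it 6 were (median 0.002). Immediate early genes, a list of 9 activity-induced genes, all had negative estimates (median -2.02). By edgeR 7 of them were lower at an unadjusted p under 0.05 (77.8%, against 2.22% of all genes), and 0 of these 9 genes had an adjusted p under 0.05. Their median deviations were -0.45, 0.88 and 1.63 log2 units for vector replicates 1, 2 and 3, against -0.45, -1.22 and -0.84 for LINC00894, so vector replicate 1 lay lowest of the vector libraries and level with LINC00894 replicate 1. All LINC00894 libraries lay below all vector libraries in 4 of the 9 (44.4%, against 3.88% of all genes), the list's median was -1.13 without vector replicate 3, and their part in the members' values was not tested.

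The question of the comparison was whether expression of LINC00894 in brain went with a different level of the release machinery. No member passed. By edgeR's quasi-likelihood test with Benjamini-Hochberg adjustment over all 15121 genes tested, 0 of 70 members had an adjusted p under 0.05 (0.0% of all genes passed), and the smallest adjusted p of a member was 0.981. At an unadjusted p under 0.05 there were 3 members lower in LINC00894 (4.29% of the 70, against 2.22% of all genes) and 0 higher (against 1.82% of all genes). The count of 3 became 0 when LINC00894 replicate 3 was left out and 11 when LINC00894 replicate 2 was; it became 1 on leaving out LINC00894 replicate 1 or either of vector replicates 1 and 2. DESeq2 and limma also called 0 members. The members nevertheless leaned to one side: 50 of 70 (71.4%) had a negative log2 fold change, against 48.2% of all genes, and their median was -0.13, against 0.01 over all genes. On log2 FPKM without TMM scaling (limma, pseudocount 1) 40 of 70 were lower, or 57.1% against 37.7% of all genes, with a median of -0.08 against 0.07 over all genes. The libraries of LINC00894 lay entirely below those of vector, on scaled log2 counts, in 6 members (8.57%, against 3.88% of all genes) and entirely above in 1 (1.43%, against 4.98%). The 95% interval held 0 in 67 of 70 members and lay within 1 log2 unit of 0 in 57 (median distance from the estimate to either bound 0.45 log2 units).

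The medians of neuronal and general members lay on different sides of 0. Of 31 tested members of the release core (the SNAREs of nerve terminals and the Munc13, synapsin, Sv2, complexin, Rims and Rab3 genes with the fast calcium sensors, Bsn, Pclo and Nsf), 28 were lower in LINC00894 and 3 higher (Syt2, Cplx3 and Cplx1), with a median log2 fold change of -0.22. Of 22 tested general trafficking members (the other Stx genes except Stx11, and the other Vamp and Snap genes, with Stxbp2, Stxbp3, Unc13d and Rab3d), 6 were lower and 16 higher, with a median of 0.13 (0.08 when vector replicate 3 was left out). Of the 17 tested members in neither set, among them 12 synaptotagmins, 16 were lower. The difference between these medians was not tested, and 0 members of either passed edgeR's adjusted p. By library the median deviation from each gene's mean was for the release core 0.18, 0.07 and 0.08 log2 units (vector replicates 1, 2 and 3), against -0.29, 0.11 and -0.15 for LINC00894. LINC00894 replicate 2 thus lay inside the vector range and the groups overlapped. For the general members the same values were -0.07, -0.01 and -0.04 in vector and 0.06, near 0 and 0.08 in LINC00894. The medians over all genes tested, -0.01 to 0.004 in vector and 0.006 to 0.04 in LINC00894, did not overlap either. Without LINC00894 replicate 2 the release core median was -0.37, and without LINC00894 replicate 1 it was -0.17 with 25 of 31 lower. The median of the 70 members was -0.26 when LINC00894 replicate 2 was left out, -0.08 when LINC00894 replicate 1 was, and -0.06 when vector replicate 3 was.

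**Figure D2:**
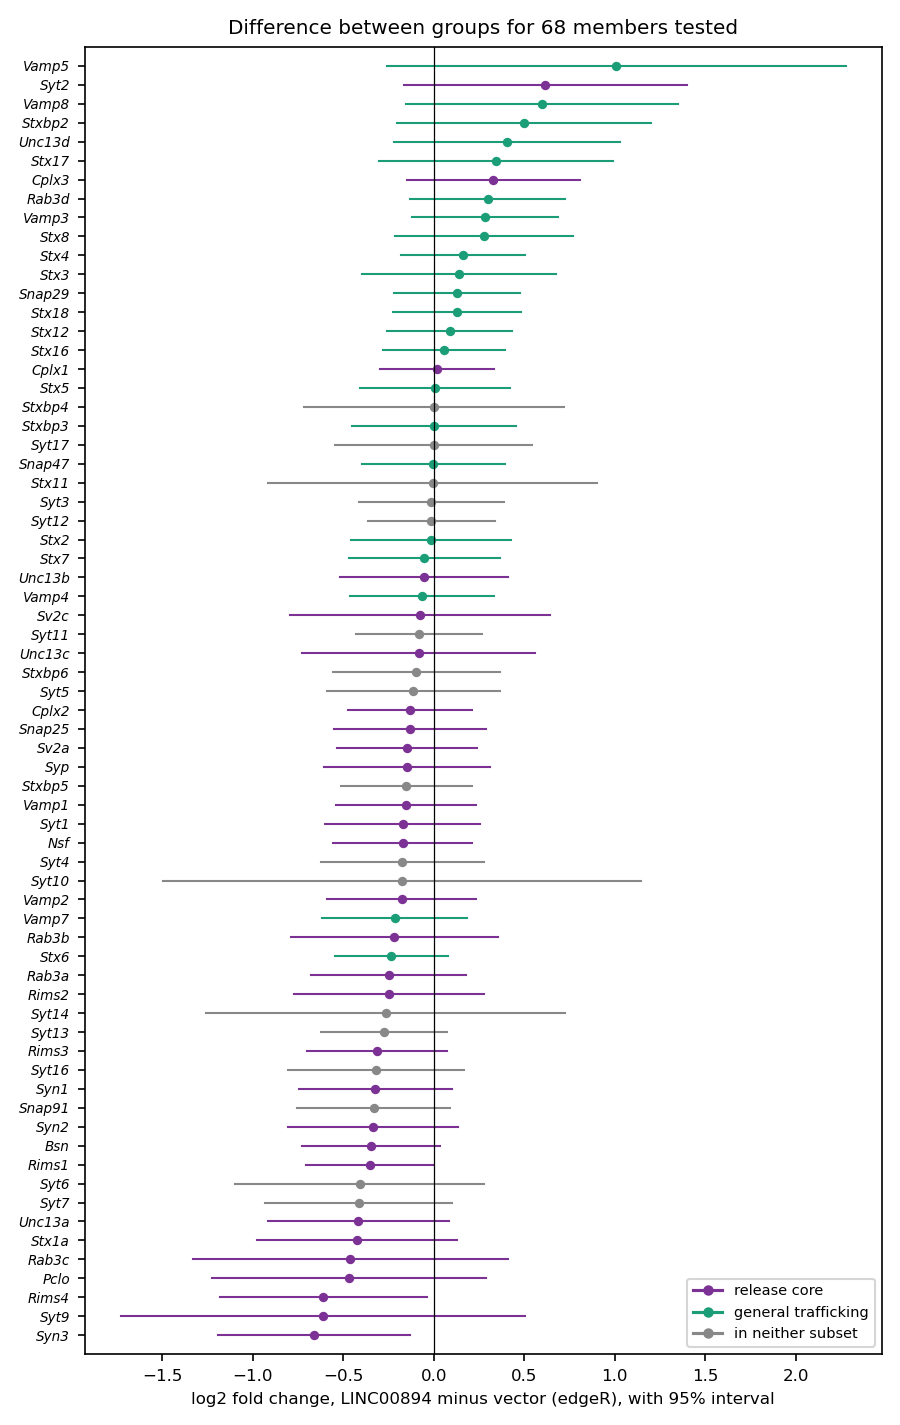
Log2 fold change of LINC00894 minus vector by edgeR for 68 of the members tested, with its 95% interval; purple marks the release core, green the general trafficking members and grey members of neither. Of the 29 purple points 26 lie left of 0 and of the 22 green points 16 lie right of it, and 65 of the 68 intervals hold 0.

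Markers of cell types moved with the libraries as well, and the lean to lower values was not particular to the members. Of the neuronal markers 9 of 11 were lower in LINC00894 (median log2 fold change -0.11), and of the cortical glutamatergic ones 5 of 5 (-0.16). Of oligodendrocyte markers 5 of 7 were lower (-0.19) and of astrocyte markers 4 of 7 (-0.15). Microglial markers had 2 of 7 lower (0.07) and endothelial markers 0 of 4 (0.275). The 11 neuronal markers had median deviations of 0.13, 0.05 and -0.02 under vector, against -0.29, 0.07 and 0.12 log2 units for LINC00894 replicates 1, 2 and 3. LINC00894 replicate 1 was low in neuronal markers as it was in the release core, and also in the 7 astrocyte markers, which lay at 0.14, 0.02 and -0.003 under vector, against -0.24, 0.20 and 0.07 under LINC00894. In LINC00894 replicate 3 the lists parted, with the neuronal markers at 0.12 and the release core at -0.15. The 7 microglial markers lay at 0.08, -0.03 and -0.01 under vector, against 0.06, 0.17 and 0.17 under LINC00894. The 5 markers of cortical glutamatergic neurons lay at 0.30, 0.19 and -0.10 in vector and -0.48, 0.16 and -0.08 in LINC00894. Of the 6 endothelial markers 4 were tested and lay at -0.01, 0.16 and -0.27 in vector and 0.85, -0.41 and -0.08 under LINC00894, highest in its replicate 1; their summed level was 30.2 to 46.1 FPKM under vector, against 33.2 to 74.3 FPKM under LINC00894, with Cldn5 at 0 in every library. The 6 markers of striatal projection neurons all had positive estimates (median 0.16, from 0.04 to 0.32 as each library was left out), with deviations of -0.10, -0.30 and 0.15 in vector and 0.16, -0.22 and 0.24 in LINC00894. Oligodendrocyte markers were highest in vector replicate 3 (0.56) and low in vector replicate 2 and LINC00894 replicate 2 (-0.47 and -0.40). In bulk tissue, fewer neurons and less of these transcripts per neuron cannot be told apart, and the part of cell content in the members' values was not tested.

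**Figure D3:**
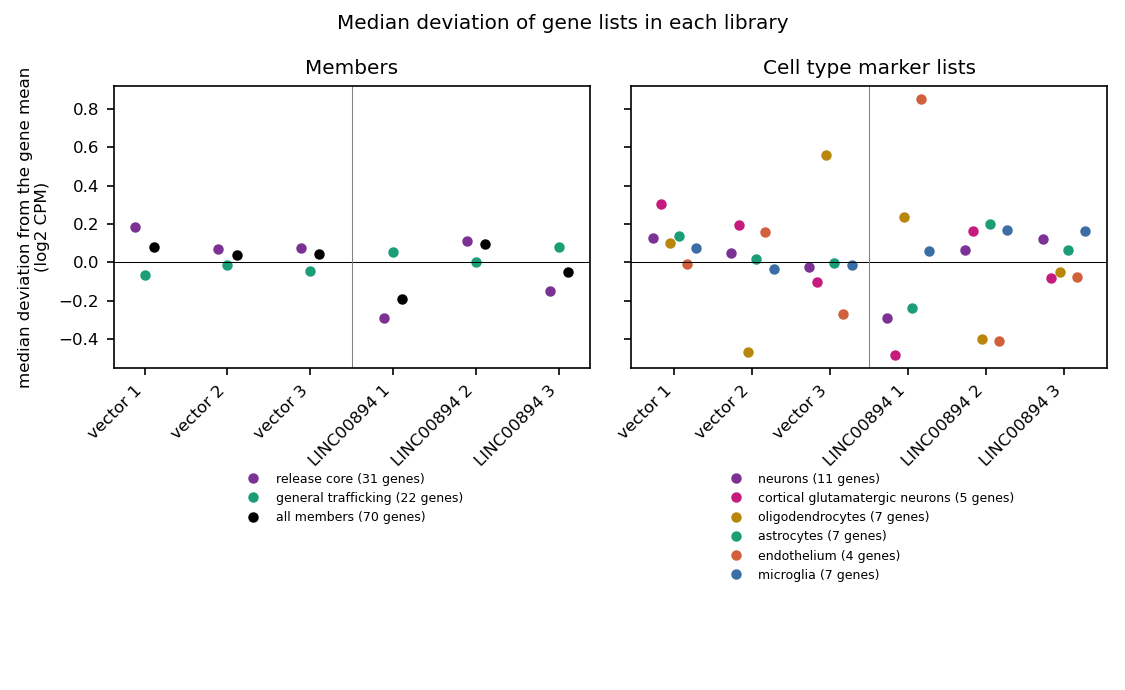
Median deviation from each gene's mean, in log2 CPM, for the members (left) and for cell type marker lists (right) in each of the 6 libraries. The release core and the neuronal markers both lie at -0.29 in LINC00894 replicate 1, where the endothelial markers lie at 0.85. In LINC00894 replicate 3 the release core lies at -0.15 and the neuronal markers at 0.12.

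Among the vesicle SNAREs, the neuronal Vamp2 stood at 412.3, 342.6 and 361.7 FPKM under vector, against 274.0, 374.5 and 385.1 FPKM under LINC00894. The groups overlapped, with LINC00894 replicate 1 alone below the vector range (log2 fold change -0.18, SE 0.18). Vamp1, synaptobrevin 1 of hindbrain and motor terminals, had a log2 fold change of -0.15 (SE 0.17). Vamp8 (endobrevin), a SNARE of endosomes and of secretory granules outside neurons, stood at 27.9, 38.3 and 23.3 FPKM under vector, against 58.6, 25.2 and 58.8 FPKM under LINC00894. It was thus high in LINC00894 replicates 1 and 3 and within the vector range in replicate 2. Its log2 fold change was 0.60 (SE 0.33, 95% interval -0.15 to 1.35; edgeR unadjusted p = 0.105). Vamp5 (myobrevin, known from muscle), which lies near Vamp8 on chromosome 4, stood at 4.88, 7.83 and 1.87 FPKM under vector, against 16.99, 5.34 and 8.58 FPKM under LINC00894. Vamp5 had the largest positive estimate of all members tested, 1.01, with a wide interval from -0.26 to 2.28. Vamp3 (cellubrevin), the general counterpart of Vamp2, stood at 29.7, 31.0 and 31.2 FPKM under vector, against 45.8, 29.2 and 42.4 FPKM under LINC00894, also highest in LINC00894 replicates 1 and 3 (0.28, SE 0.18). Vamp5 and Vamp3 were named after their values were seen. In all, 4 of 7 Vamp genes were lower and 3 higher, with a median of -0.07 that turned to 0.09 when LINC00894 replicate 1 was left out and to -0.16 when replicate 2 was.

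On the plasma membrane side, Snap25 stood at 866.2, 862.7 and 813.6 FPKM under vector, against 626.9, 906.6 and 893.6 FPKM under LINC00894. In FPKM its LINC00894 libraries spread around the vector libraries, with replicate 1 below and replicates 2 and 3 above. On scaled log2 counts replicate 3 lay within the vector range. Its log2 fold change was -0.13 (SE 0.19) and was 0.03 without LINC00894 replicate 1. Stx1a, which encodes a syntaxin that pairs with SNAP-25 in nerve terminals, stood at 94.6, 90.6 and 62.0 FPKM under vector, against 43.4, 74.0 and 75.4 FPKM under LINC00894, with overlapping groups (-0.42, SE 0.25). Among the syntaxins used more widely at the plasma membrane, Stx2, Stx3, Stx4 and Stx11 had log2 fold changes from -0.02 to 0.16.

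SNAREs of the Golgi, endosomes, lysosomes and endoplasmic reticulum had 3 of 10 genes lower and 7 higher, with a median of 0.07 (0.03 to 0.14 as each library was left out). Stx12 (syntaxin 13 of recycling endosomes), the highest of them, stood at 59.8, 63.0 and 60.8 FPKM under vector, against 59.0, 66.7 and 78.7 FPKM under LINC00894 (0.09, SE 0.15). Stx6, a syntaxin of the trans-Golgi network, was the member of this role with the smallest p. It stood at 35.6, 32.3 and 31.3 FPKM under vector, against 28.1, 29.1 and 31.2 FPKM under LINC00894. The groups did not overlap, although vector replicate 3 and LINC00894 replicate 3 nearly met (-0.23, SE 0.14, edgeR unadjusted p = 0.127).

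Of the syntaxin-binding proteins and Nsf, 4 of 7 genes were lower and 3 higher, with a median of -0.10 (-0.28 to -0.07 as each library was left out). Nsf, the ATPase that takes spent SNARE complexes apart, stood at 264.0, 247.3 and 237.4 FPKM under vector, against 190.1, 256.1 and 249.1 FPKM under LINC00894 (-0.17, SE 0.17). In FPKM LINC00894 replicate 1 alone lay below the vector range, and on scaled log2 counts replicate 3 lay just below it as well. Stxbp2, which serves granule release in epithelial and immune cells, was low at 2.36, 3.95 and 1.98 FPKM under vector, against 5.05, 3.12 and 4.11 FPKM under LINC00894 (0.50, SE 0.31); it was named after its values were seen.

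Of the calcium sensors of release, Syt1 stood at 353.3, 333.3 and 375.0 FPKM under vector, against 264.0, 397.5 and 324.7 FPKM under LINC00894. The groups overlapped, and LINC00894 held both the lowest and the highest library (-0.17, SE 0.19). Syt2, the faster sensor of hindbrain and parvalbumin cell terminals, stood at 3.26, 3.98 and 5.06 FPKM under vector, against 10.4, 5.67 and 3.76 FPKM under LINC00894. LINC00894 replicates 1 and 2 lay above the vector libraries and replicate 3 among them (0.62, SE 0.35), and the estimate was 0.14 without LINC00894 replicate 1. Syt9 was high in vector replicate 3 alone, at 7.97 FPKM against 2.08 to 2.99 FPKM in the other 5 libraries. Of the other synaptotagmins 12 were tested and 12 had a negative estimate, with a median of -0.18; that of Syt17 was negative only beyond the third decimal. Leaving out vector replicate 3 moved the median to -0.05 and leaving out LINC00894 replicate 2 moved it to -0.34, and 4 of the 12 genes kept their sign under every alternative (Syt6, Syt7, Syt13 and Syt16). Syt7, a slow calcium sensor, had the smallest p of these, at 62.7, 58.1 and 58.0 FPKM under vector, against 43.1, 63.7 and 33.2 FPKM under LINC00894 (-0.42, SE 0.23, edgeR unadjusted p = 0.101). LINC00894 replicate 2 lay above all vector libraries in FPKM and within their range on scaled log2 counts. Syt11, the most abundant of them and one that lacks calcium binding, stood at 203.2 to 225.8 FPKM under vector, against 187.6 to 224.9 FPKM under LINC00894 (-0.08, SE 0.16). Syt10 was another gene with high vector replicate 3, at 9.47 FPKM against 2.69 and 2.31 FPKM in the other vector libraries and 2.14 to 7.32 FPKM in LINC00894. Syt9 and Syt10 were named after their values were seen.

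The complexins, small proteins that clamp and then promote fusion, did not lean to one side. Cplx1 stood at 173.8, 153.2 and 157.3 FPKM under vector, against 175.7, 159.3 and 179.0 FPKM under LINC00894 (0.02, SE 0.14), an estimate with its sign undecided under other settings. Cplx2 stood at 215.0, 194.0 and 192.8 FPKM under vector, against 192.2, 212.3 and 170.9 FPKM under LINC00894 (-0.13, SE 0.15). Cplx3, a complexin of ribbon synapses and of a few cortical neurons, stood at 4.14, 3.39 and 4.01 FPKM under vector, against 4.15, 5.51 and 5.53 FPKM under LINC00894 (0.33, SE 0.21). In FPKM the lowest LINC00894 library lay just above the highest vector library, and on scaled log2 counts the groups overlapped.

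The 6 genes of the synapsin, synaptophysin and Sv2 families, proteins in or on the vesicle, were all lower, with a median of -0.24 that ran from -0.40 to -0.18 as each library was left out. Syn3, the least abundant synapsin here, of a family that tethers vesicles in reserve, had the smallest p of all members. It stood at 7.23, 7.63 and 7.38 FPKM under vector, against 4.56, 6.36 and 3.78 FPKM under LINC00894, so the vector libraries were tight and all LINC00894 libraries lay below them. Its log2 fold change was -0.66 (SE 0.24, 95% interval -1.19 to -0.13; edgeR unadjusted p = 0.0201, adjusted p = 0.981). Two-sided exact permutation of its FPKM values gave p = 0.1, the smallest that 3 against 3 libraries allow. Syn3 (ENSRNOG00000026866) lies on chromosome 7 from 23403891 to 23808602, per the table (build not given in the sources used here). Syn1, the X-linked and most abundant synapsin, stood at 243.4, 205.0 and 185.8 FPKM under vector, against 147.3, 210.6 and 172.4 FPKM under LINC00894 (-0.32, SE 0.19). Syn2 stood at 138.0, 132.4 and 102.2 FPKM under vector, against 77.9, 127.0 and 103.4 FPKM under LINC00894 (-0.34, SE 0.21). Both overlapped between groups, with LINC00894 replicate 1 lowest. Syp stood at 536.7, 482.8 and 453.7 FPKM under vector, against 336.2, 511.3 and 545.1 FPKM under LINC00894, and its estimate of -0.15 (SE 0.20) was 0.04 without LINC00894 replicate 1. Sv2a, a vesicle glycoprotein and the target of levetiracetam, had an estimate of -0.15 (SE 0.17).

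The active zone role had 9 of 10 genes lower, all but Unc13d, and a median of -0.33 that ran from -0.51 to -0.23 as each library was left out. Rims4, a short RIM protein, stood at 38.0, 31.9 and 24.3 FPKM under vector, against 27.2, 22.4 and 15.1 FPKM under LINC00894, with overlapping groups (log2 fold change -0.61, SE 0.25, edgeR unadjusted p = 0.0388, adjusted p = 0.981). Rims1, the scaffold that recruits calcium channels and Munc13 to release sites, stood at 43.5, 42.1 and 46.1 FPKM under vector, against 33.6, 41.3 and 32.9 FPKM under LINC00894, with no overlap and with LINC00894 replicate 2 close to the vector libraries (-0.36, SE 0.16, edgeR unadjusted p = 0.0464, adjusted p = 0.981). Bsn (bassoon, a giant scaffold) stood at 38.6, 35.5 and 34.3 FPKM under vector, against 28.8, 35.2 and 25.3 FPKM under LINC00894, and Rims3 at 17.8, 17.6 and 15.3 FPKM under vector, against 14.1, 15.3 and 13.3 FPKM under LINC00894. In FPKM both overlapped between groups by 1 library, and on scaled log2 counts neither did. Their estimates were -0.35 (SE 0.17) and -0.31 (SE 0.17). Unc13a (Munc13-1, the main priming factor) stood at 33, 37.1 and 40.2 FPKM under vector, against 26.5, 38.6 and 21.2 FPKM under LINC00894 (-0.42, SE 0.22). Pclo (piccolo) was the most variable large scaffold, at 12.01, 15.30 and 24.26 FPKM under vector, against 12.96, 18.32 and 7.65 FPKM under LINC00894 (-0.47, SE 0.34). Bsn, Rims3 and Pclo were named after their values were seen.

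Active zone genes are long, with a median exonic length of 6560 bases against 2367 bases over all genes tested, and the libraries differed in how level went with length. The slope of deviations from each gene's mean, per doubling of exonic length over all genes tested, was 0.005, 0.017 and 0.062 for vector. For LINC00894 replicates 1, 2 and 3 it was -0.0005, 0.016 and -0.10. LINC00894 replicate 3 was the lowest library for 8 of the 10 active zone genes and LINC00894 replicate 1 for 1. With each library's length trend removed the median of the active zone genes was -0.22, above those of the vesicle GTPases (-0.33) and of the synapsin, synaptophysin and Sv2 genes (-0.27). In that setting the release core median was -0.21, and Rims1 had an estimate of -0.27 (edgeR unadjusted p = 0.0906) while Rims4 and Syn3 had -0.70 and -0.69. The vesicle GTPases were only 4 genes, and with the length trend kept their median went from -0.23 to 0.07 when vector replicate 3 was left out. LINC00894 replicate 1 was the lowest library for 4 of the 6 vesicle proteins and 4 of the 7 plasma membrane SNAREs. Over the members alone the slopes with length were 0.055, -0.017 and 0.12 for vector, against -0.14, 0.085 and -0.10 for LINC00894.

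**Figure D4:**
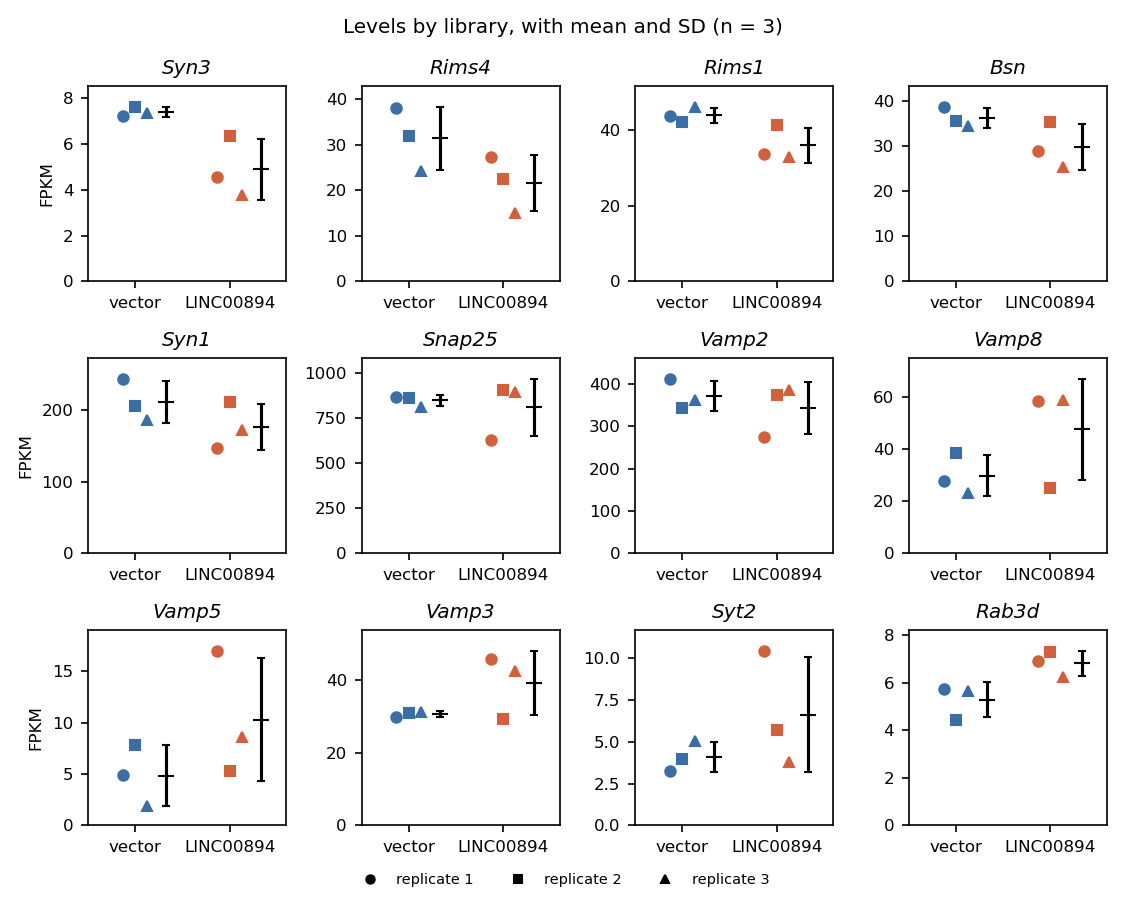
Level of 12 members in each library, in FPKM, with the mean and SD of each group in black (n = 3 per group); circles, squares and triangles are replicates 1, 2 and 3. Syn3 and Rims1 do not overlap between groups, while Snap25 and Vamp2 differ mainly by the low circle of LINC00894 replicate 1 and Vamp8 and Vamp3 by the high marks of LINC00894 replicates 1 and 3.

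Of the vesicle GTPases, Rab3a, the main Rab of synaptic vesicles, stood at 185.6, 140.8 and 187.6 FPKM under vector, against 123.2, 172.9 and 157.2 FPKM under LINC00894 (-0.25, SE 0.19). Rab3c ranged more widely, at 11.6, 17.4 and 34.4 FPKM under vector, against 15.3, 21.7 and 11.2 FPKM under LINC00894 (-0.46, SE 0.39), and the estimate was 0.07 without vector replicate 3. Rab3d, the Rab3 of non-neuronal secretory granules, was the one member tested whose LINC00894 libraries all lay above the vector libraries on scaled log2 counts. It stood at 5.75, 4.45 and 5.66 FPKM under vector, against 6.90, 7.29 and 6.25 FPKM under LINC00894 (0.30, SE 0.19, edgeR unadjusted p = 0.151). Snap91 (AP180), which assembles clathrin on vesicles being retrieved, stood at 138.0, 124.4 and 102.4 FPKM under vector, against 80.2, 109.4 and 113.5 FPKM under LINC00894 (-0.33, SE 0.19), with overlapping groups.

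Ratios of paralogs within a library do not depend on how libraries are scaled, and 7 pairs were compared; 3 further planned pairs were not analysed here. Vamp2 exceeded Vamp1 in every library, and the ratio of Vamp1 to Vamp2 was 0.15 to 0.22 in vector and 0.14 to 0.24 in LINC00894. Syt1 exceeded Syt2 by 108.4, 83.7 and 74.1 times in vector and by 25.4, 70.1 and 86.3 times in LINC00894, with replicate 1 apart from the rest. Cplx1 was 0.79 to 0.82 times Cplx2 in vector and 0.91, 0.75 and 1.05 times in LINC00894, where the spread was wider. Syn1 to Syn2 varied little, at 1.55 to 1.82 in vector and 1.66 to 1.89 in LINC00894. Unc13a to Unc13b was 2.92 to 5.12 and 2.23 to 3.20, Rims1 to Rims2 4.26 to 6.05 and 4.32 to 5.44, and Rab3a to Rab3c 5.46 to 16.0 and 7.96 to 13.98. The groups overlapped in all 7 pairs, and two-sided exact permutation tests gave p from 0.3 to 1, with adjusted p over the 7 pairs from 0.933 to 1, in a design that cannot go below 0.1.

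**Figure D5:**
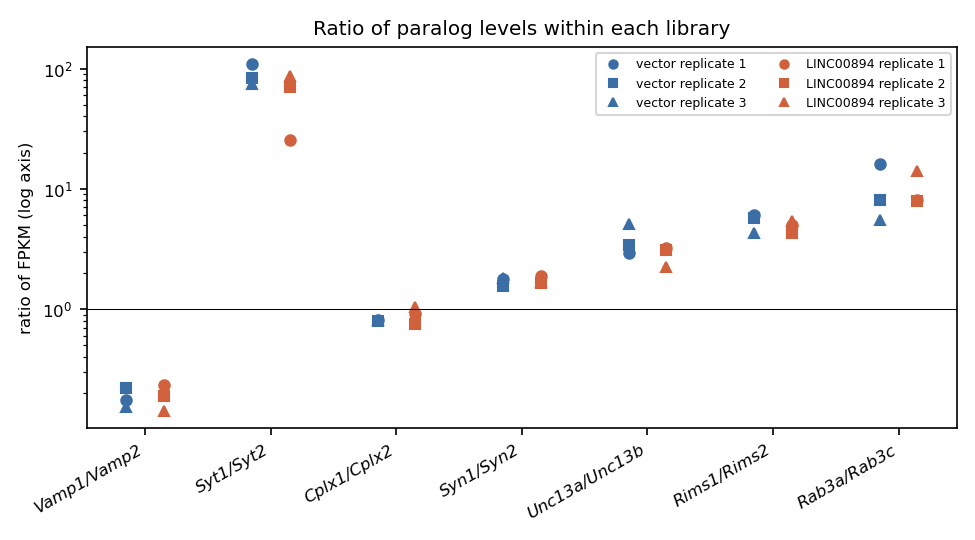
Ratio of FPKM values between 7 pairs of paralogs within each library, on a log axis; blue marks are vector, orange marks are LINC00894, and shapes are replicates. Vector and LINC00894 marks overlap in every pair, and the ratio of Syt1 to Syt2 is lowest in LINC00894 replicate 1, at 25.4.

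Neighbouring steps of the vesicle cycle leaned the same way, and 0 of their genes passed edgeR's adjusted p. Of 33 other release cofactors 28 were lower (median -0.26, from -0.39 to -0.15 as each library was left out), and the libraries did not overlap in 9 of them on the lower side (27.3%, against 3.88% of all genes). Doc2b, a calcium sensor of spontaneous release, had the smallest p, at 9.91 ± 2.17 FPKM under vector, against 5.80 ± 0.81 FPKM under LINC00894 (group means with SD, n = 3; log2 fold change -0.84, SE 0.24). Erc2, an active zone scaffold, Syngr1, a vesicle membrane protein, and Rph3a, an effector of Rab3, had estimates of -0.48 (SE 0.20), -0.35 (SE 0.15) and -0.42 (SE 0.18). Transmitter loading had 8 of 10 genes lower (median -0.18, with -0.23 without LINC00894 replicate 1 and -0.38 without LINC00894 replicate 3). Its median deviations were 0.04, 0.11 and 0.19 log2 units in vector replicates 1, 2 and 3, against -0.51, 0.009 and 0.006 in LINC00894, where replicate 1 lay lowest. The list was led by Slc6a17, a vesicular amino acid transporter, at 130.0 ± 30.6 FPKM under vector, against 90.4 ± 13.4 FPKM under LINC00894 (-0.59, SE 0.21), and by Slc17a7 (VGLUT1, which loads glutamate; -0.51, SE 0.24). Of 21 vesicle recycling genes 16 were lower (median -0.14, from -0.23 to -0.10 as each library was left out), among them the AP2 adaptor subunits Ap2a1, Ap2a2 and Ap2b1 at -0.35, -0.39 and -0.32 (SE 0.15, 0.18 and 0.16). All 7 genes of presynaptic calcium entry had negative estimates (from -0.35 to -0.10), with a median of -0.22 that became -0.41 without LINC00894 replicate 2 and -0.14 without vector replicate 3, with Cacna1a, the P/Q-type channel, at -0.27 (SE 0.16).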

How the data were processed

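Polyadenylated RNA of 6 rat brain libraries was extracted with TRIzol and sequenced as paired ends, per the labels' protocols. The authors deposited raw counts and FPKM values per gene, per the file headers; HISAT2 2.0.1 and DESeq2 are named in the submitters' processing notes without roles. Counting tool, strand use, annotation and build were not given in the sources used here, so overlapping genes and close paralogs are uncertain. Deposited FPKM values equalled counts divided by exonic length and summed counts to within 0.005. Rows without a symbol (388, 0.0236% of counts) stayed in the tests.

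Counts were tested with edgeR 4.0.16 in R 4.3.3: filterByExpr (minimum count 10, total 15), TMM factors, quasi-likelihood F-test, no covariate, Benjamini-Hochberg adjustment over 15121 genes, threshold 0.05. Log2 fold changes are LINC00894 minus vector. Median deviations use log2 CPM (prior count 2). The biological coefficient of variation was 0.238, and the median SE of a member was 0.20. The steps were tested on simulated data with planted changes of 1 and 2 log2 units, so smaller changes were not covered. Alternatives used DESeq2 1.42.0 and limma 3.58.1 (log2 FPKM with pseudocounts of 1 or 0.1, for genes whose FPKM averaged 0.5 or more). Of 210 list symbols, 205 matched. Plots used matplotlib 3.10.9.

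The members and lists were chosen with earlier results of these data known. Genes named were those at an unadjusted p under 0.05, the most abundant and the smallest-p gene of each role, the paralog pairs, and up to 4 genes of each other list; exceptions are marked. In all, 2 members stay in the counts and medians but are not reported here by name or drawn.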

Additional observations from a re-analysis of the deposited data

How the results depend on the processing

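No member was called under any of the 14 alternatives. All genes called numbered 8 without a filter on low counts, 9 by DESeq2, and 0 to 9 as each library was left out. Members lower at an unadjusted p under 0.05 numbered 1 by limma on log2 FPKM with either pseudocount. By limma-voom with sample quality weights they numbered 7. They numbered 0 to 11 as each library was left out (0 without LINC00894 replicate 3, 11 without LINC00894 replicate 2). Members higher numbered 0 to 2. The members' median ran from -0.256 to -0.063 as each library was left out. Of 34 members given with estimates by the naming rule or chosen after their values were seen, 26 kept their sign under every alternative. Cplx1 had -0.002 with median-of-ratios scaling, -0.003 by DESeq2, -0.012 by limma-voom with weights, -0.021 with the length trend removed, and -0.034 to 0.068 as each library was left out. Unc13b had 0.007 by limma on log2 FPKM with either pseudocount, 0.078 with the length trend removed and -0.270 to 0.075 over libraries left out. With Y-linked counts as a covariate Snap25 had 0.003, Syp 0.076 and Syt2 -0.199. That fit sets LINC00894 replicate 3 alone against the vector libraries, because only LINC00894 replicates 1 and 2 lacked Y-linked counts. It is therefore no adjusted comparison of the full groups. Over libraries left out, Rab3c ran from -0.783 to 0.075, Snap25 from -0.257 to 0.028, Stx12 from -0.042 to 0.188, Syp from -0.289 to 0.044 and Syt11 from -0.161 to 0.006. The cause of these reversals was not tested. No paired analysis was possible because the replicate numbers come from accession order and pair nothing. With 3 libraries per group, the bounds of a member's 95% interval lay a median of 0.45 log2 units from its estimate.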
